A study of Homo sapiens with 8 samples.

Results

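Constant protein-coding promoters are the regions of open chromatin that every library of the study called at the start of a protein-coding gene. They were chosen by joining the peaks of 8 FAIRE-seq lists on chromosomes 1 to 22 and X wherever peaks overlapped by 1 bp, and by keeping regions with a peak in all 8 lists, within 1000 bp of a GENCODE protein-coding transcription start site (TSS), and shorter than 2000 bp. Of 52105 joined regions, 9096 (17.5%) met the rule, and they lay at 9838 of 19626 protein-coding genes (50.1%). Presence of a peak was selected on in every library, so presence is a property of the choice and not a result.

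In FAIRE-seq, crosslinked chromatin is sheared and extracted with phenol and chloroform, and DNA that is not bound up in nucleosomes is recovered from the aqueous phase and sequenced (the name stands for isolation of regulatory elements with formaldehyde). It was performed in U2OS, an established human osteosarcoma cell line with a rearranged karyotype. There were 4 groups of 2 libraries: untreated wild type (WT; clones WT_4 and WT_5), untreated ZBTB48 knockout (KO; clones KO_C5 and KO_D2), and the same 4 clones after interferon gamma (IFNγ) at 250 U/ml. A treatment of 24 h is given in the labels for these libraries while the study's text on FAIRE-seq differs, so the duration is uncertain. ZBTB48 is a zinc finger protein that binds telomeric repeats and some promoters, and the comparisons ask how its loss and IFNγ bear on open chromatin. Each line is a single cell clone, so with 2 clones per genotype a genotype effect and a clone effect are separated only as far as those clones allow. All groups share the parental line, and the labels name no further agent.

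An active promoter is held free of nucleosomes just upstream of its TSS by sequence-specific factors and by the transcription machinery. Most promoters of widely used genes lie in CpG islands, GC-rich stretches that carry motifs for SP and KLF proteins, ETS factors, NRF1, NF-Y and CREB. IFNγ acts through JAK kinases, GAS elements in DNA and the factor IRF1, and it raises antigen presentation genes.

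Stretches of 6 members are shown because the results below turn on them: 1 of the strongest members, 3 promoters of the IFNγ response, a member reported by the study as a ZBTB48 target, and a member from 1 end of the main difference between libraries. Each stretch holds the 120 bases free of annotated exons that lie at the median summit or nearest upstream of it, on GRCh38, read 5′ to 3′ on the strand of the gene. Capitals mark matches on either strand to the motifs searched: SP and KLF box GGGGCGG, ETS core CCGGAAG, NF-Y box CCAATCA, CRE TGACGTCA, E-box CACGTG, NRF1 GCGCATGCG, YY1 AAGATGGCG, ZBTB33 or CGCG box TCTCGCGA, ZNF143 ACTACAA, AP-1 TGANTCA, ISRE-like GAAANNGAA, GAS TTCNNNGAA and the ZBTB48 hexamer TTAGGG.
PPM1D (chr17:60600073-60600192, plus strand): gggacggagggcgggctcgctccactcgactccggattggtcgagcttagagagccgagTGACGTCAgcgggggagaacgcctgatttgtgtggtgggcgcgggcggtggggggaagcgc
IL15RA (chr10:5977612-5977731, minus strand): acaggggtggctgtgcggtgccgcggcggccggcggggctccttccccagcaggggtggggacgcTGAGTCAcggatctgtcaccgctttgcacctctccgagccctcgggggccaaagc
CD274 (chr9:5450383-5450502, plus strand): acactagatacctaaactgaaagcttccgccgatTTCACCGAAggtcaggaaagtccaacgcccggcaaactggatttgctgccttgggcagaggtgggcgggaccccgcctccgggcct
IRF1 (chr5:132490828-132490947, minus strand): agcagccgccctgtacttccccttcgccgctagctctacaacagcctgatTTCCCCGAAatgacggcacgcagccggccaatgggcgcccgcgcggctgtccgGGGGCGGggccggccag
SNX15 (chr11:65027198-65027317, plus strand): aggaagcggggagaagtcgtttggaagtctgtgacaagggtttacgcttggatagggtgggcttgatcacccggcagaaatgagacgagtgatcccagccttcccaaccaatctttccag
MED1 (chr17:39451309-39451428, minus strand): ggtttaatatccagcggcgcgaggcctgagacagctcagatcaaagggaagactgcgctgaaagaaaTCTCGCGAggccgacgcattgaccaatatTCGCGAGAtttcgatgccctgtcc
The CRE of PPM1D stands alone in its stretch. CD274 and IRF1 each hold a GAS match, and IRF1 also holds an SP and KLF box. MED1 holds 2 CGCG boxes in opposite orientation. The SNX15 stretch ends 169 bp upstream of its TSS, above the exons at its summit, and holds none of these motifs, and the IL15RA stretch holds an AP-1 match.

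Members ran from 304 to 1991 bp in length, with a median of 882 bp, and 97.0% contained a protein-coding TSS. The longest member was at HOOK3 (1991 bp), and the shortest region left out for its length was at CORO1C (2000 bp), 1 of 274 such regions. The farthest member lay 1000 bp from a TSS (DDAH1), and the nearest region left out lay 1001 bp from one (NR1H2). A further 1002 promoters had a peak in 7 of 8 lists. Their mean percentile over those 7 lists had a median of 45.1, against 75.4 over 8 lists for members. The list they were missing from was most often KO_C5 untreated (348 promoters) or KO_D2 untreated (279), and least often WT_5 with IFNγ (5).

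The libraries differed in ways that neither genotype nor treatment followed, which bears on each comparison below. Lists held 16730 to 37533 peaks, and read depth is not given by peak lists. The number of fragments over each summit, solved from the fold enrichment and p-value of the peak, had a median over members of 49 to 99 fragments. After quantile normalisation, the leading component of these pileups carried 54.0% of the variance between libraries. It set WT_4 untreated, KO_C5 untreated and WT_4 with IFNγ (loadings −0.52, −0.44 and −0.35) against both WT_5 libraries and the IFNγ libraries of both KO clones (0.28 to 0.36), with KO_D2 untreated in between (0.06). Thus the untreated and the IFNγ library of clone KO_C5 fell on opposite sides.

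The component followed the base composition of the promoter (Spearman's rho = −0.69 with GC content over 9096 members, which share the same 8 libraries). In the fifth of members with the lowest GC content (median 62.5%), the log2 pileup deviated from the mean of all libraries by −0.36 in WT_4 untreated, −0.42 in KO_C5 untreated and −0.28 in WT_4 with IFNγ. The same members deviated by 0.27 to 0.34 in WT_5 untreated, WT_5 with IFNγ and both KO clones with IFNγ. In the fifth with the highest GC content (median 78.4%) the signs were opposite, with 0.18 to 0.30 in the first set and −0.23 to −0.13 in the second.

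**Figure D1:**
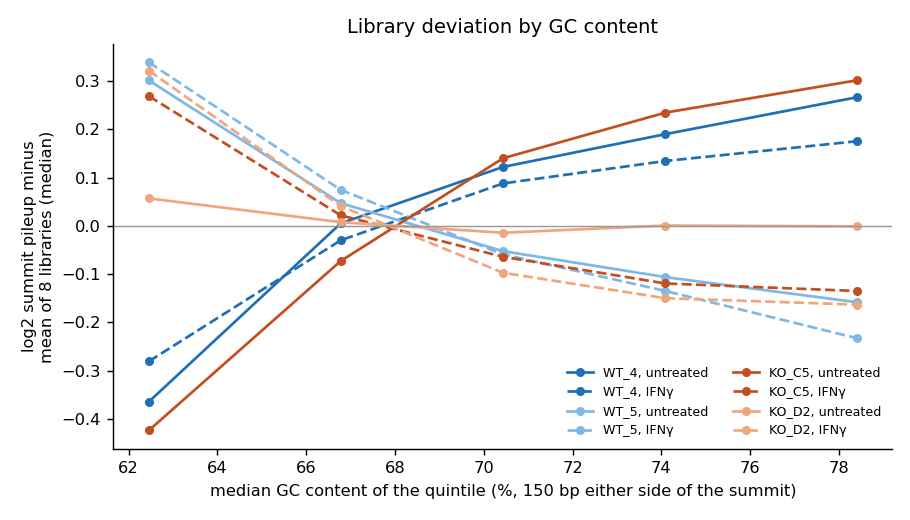
Median deviation of log2 summit pileup from the mean of the 8 libraries (vertical axis) for members in 5 classes of GC content (horizontal axis, % of the 301 bp around the summit), with 1 line per library, solid for untreated and dashed for IFNγ. Lines of WT_4 and of untreated KO_C5 rise with GC content, those of WT_5 and of both KO clones with IFNγ fall, and untreated KO_D2 stays near 0.

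Single members from the ends of this component were picked after their values were seen. Separation of libraries at them follows in part from that choice, and they do not give its typical size. MED1, a Mediator subunit whose CGCG boxes are shown above (chr17:39451157-39451953, GC content 52.5%), had 7, 14 and 6 fragments in WT_4 untreated, KO_C5 untreated and WT_4 with IFNγ. It had 38 fragments in KO_D2 untreated and 68, 75, 88 and 62 in WT_5 untreated, WT_5 with IFNγ, KO_C5 with IFNγ and KO_D2 with IFNγ. These sets did not overlap, and KO_D2 untreated lay between them. At the opposite end, TSPAN9, a tetraspanin with a GC content of 82.4% at its summit, had 84, 71 and 46 fragments in the first 3 libraries, 23 in KO_D2 untreated and 28, 33, 62 and 32 in the other four. These sets overlapped through KO_C5. RPS12, a ribosomal protein gene, went with MED1 (20, 24 and 30 fragments against 191 to 208, and 99 in KO_D2 untreated). COL6A2, a collagen VI gene at the end of TSPAN9, had 56, 26 and 51 fragments in the first 3 libraries, 25 in KO_D2 untreated and 24, 18, 33 and 18 in the other four, again with overlap through KO_C5. Whether base composition caused these differences was not tested, and comparisons are given below with and without a correction for it.

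Strength was described as the percentile of −log10 p among all peaks of the same list. The mean percentile over 8 lists had a median of 75.4 over members (interquartile range 61.2 to 87.3). Beside it, the median was 25.9 for the 7721 promoters with a peak in some lists only (mean over those lists). It was 62.4 for the 2181 constant regions away from promoters. These sets differ by the choice itself, so no test was made. A member's percentile varied between lists by a median of 23.6 points (interquartile range 13.4 to 36.7), and 860 members (9.45%) were at or above percentile 90 in every list.

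The strongest member was at UBALD2 (chr17:76264730-76266189), with a mean percentile of 99.95 ± 0.026 (SD, n = 8 libraries). It was followed by USP42, a deubiquitinase gene (99.93 ± 0.11), and PPM1D, a phosphatase gene of the p53 pathway (99.93 ± 0.059). Next came ATAD2, SQLE, ZFAND2A, MCM5, USP32, CENPX and HIF1A, each with a mean percentile of 99.87 to 99.92. They include a squalene epoxidase (SQLE), a subunit of the replicative helicase (MCM5) and the oxygen-regulated factor HIF1A. On chromosome 17, which holds 557 of the 9096 members, lie 4 of the 10 strongest. Head-to-head pairs of protein-coding genes share the member at ATAD2, USP32 and CENPX. The weakest members were ITM2B (15.3 ± 11.2), TUB (16.6 ± 15.2), FOXF2 (17.1 ± 9.39), NKAIN3 (17.5 ± 14.0) and NHLRC2 (17.9 ± 11.7), whose spread between libraries was far larger.

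**Figure D2:**
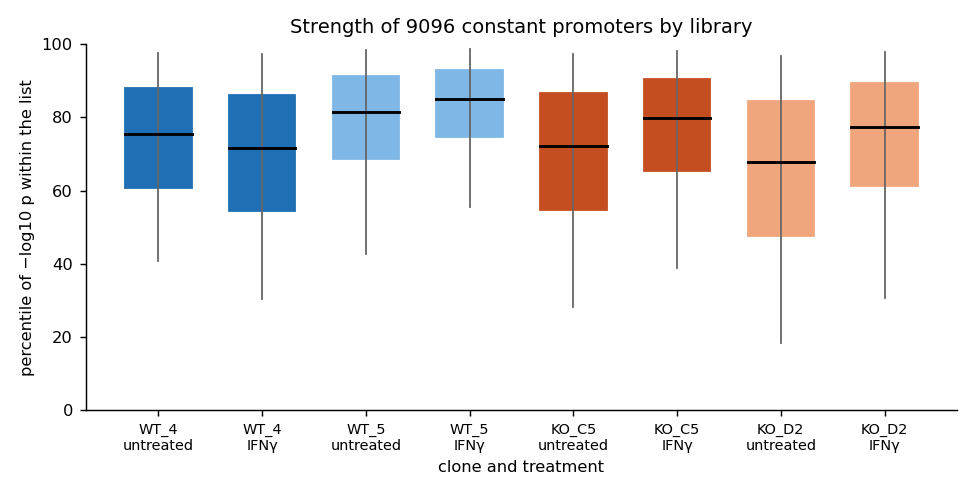
Percentile of −log10 p among the peaks of each list (vertical axis) for the 9096 members by clone and treatment (horizontal axis), with boxes from the lower to the upper quartile, black lines for the median and whiskers from the 5th to the 95th percentile of members. Medians run from 67.9 in KO_D2 untreated to 85.1 in WT_5 with IFNγ.

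Head-to-head gene pairs took a larger share of the stronger members. Between the weakest 25% and the strongest 25% of members, the share of head-to-head gene pairs went from 7.70% to 14.9%, and that of members with a divergent long noncoding RNA from 13.6% to 19.9%. The median length went from 841 to 995 bp and the ratio of observed to expected CpG went from 0.871 to 0.928, while the median GC content was 71.8% and 70.4%. Over all members, 11.7% were head to head, beside 5.25% of the variable promoters.

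Motif shares in windows of 301 bp around the median summit are given as counts of letters, with no test. Base composition differs between the sets compared. Median GC content was 70.1% in members, 64.5% in variable promoters, 67.4% in constant distal regions and 60.1% in all regions. Its part in the motif shares was not tested. The SP and KLF box was found in 64.6% of members, 34.8% of variable promoters, 42.4% of constant distal regions and 25.3% of all 52105 regions. The ETS core was found in 19.9% of members and 7.53% of all regions, the NF-Y box in 9.87% and 4.10%, the CRE in 3.77% and 1.24%, NRF1 in 4.56% and 1.29%, YY1 in 4.16% and 1.13%, and the CGCG box in 2.43% and 0.612%. The E-box was found in 11.4% of members and 7.48% of all regions, and ZNF143 in 3.63% and 2.66%. AP-1, in contrast, was found in 3.77% of members against 19.8% of all regions and 16.6% of constant distal regions, and the TATA box TATAAA in 2.21% against 7.64%. The hexamer TTAGGG was found in 6.23% of members and 6.86% of all regions, beside 11.0% and 16.6% for the control hexamer GTGAGT. GAS and ISRE-like letters were in 3.94% and 3.98% of members and in 6.89% and 7.48% of all regions.

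Among members, the NF-Y box showed the widest step with strength of the motifs searched. It was in 5.28% of the weakest 25% of members and in 15.96% of the strongest 25%, and members with it had a median percentile of 83.3 against 74.4 without. The ETS core went from 13.8% to 22.6% and NRF1 from 2.77% to 6.11%, whereas TTAGGG was in 5.37% and 5.89%. Matches of NRF1, the CRE and the CGCG box lay a median of 37.5, 38 and 40 bp from the summit, those of TTAGGG and GTGAGT 92.5 and 89 bp. A match of letters is a description and not evidence of binding.

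The summit lay just upstream of the TSS. The median offset of the median summit was −47 bp (interquartile range −91 to −10), 81.1% of members had their summit upstream, and 83.6% had it within 150 bp. The summit lay outside protein-coding transcripts in 53.8% of members, in an intron in 22.1%, in an untranslated exon in 21.5% and in a coding exon in 2.62%. Members with a summit 100 to 150 bp upstream were the strongest by position (median percentile 84.9, n = 941), those 150 to 300 bp downstream the weakest (56.4, n = 148).

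**Figure D3:**
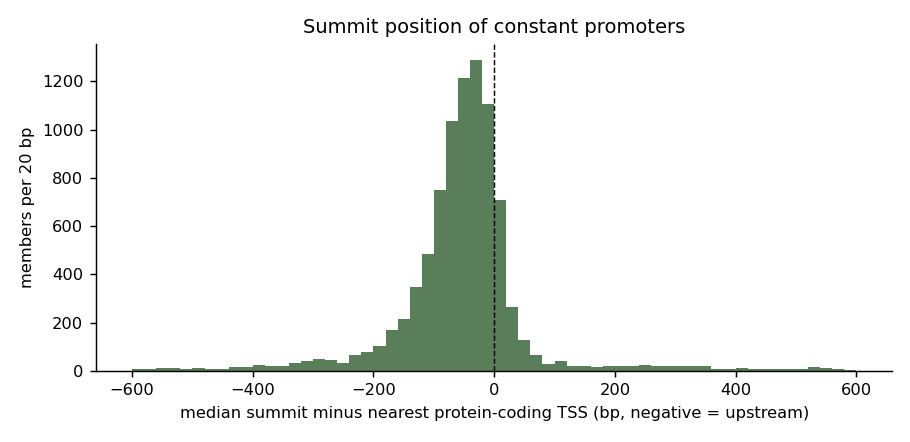
Number of members per 20 bp (vertical axis) by the distance of their median summit from the nearest protein-coding TSS (horizontal axis, bp, negative values upstream, shown from −600 to 600). The bulk lies just left of the dashed TSS line, where the median offset is −47 bp.

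The 8 summits of a member spanned a median of 58 bp, and 76.3% of members kept them within 100 bp, whereas 425 members (4.67%) spread them over more than 500 bp. The median span was 96 bp in the weakest 25% of members and 47 bp in the strongest 25%. The narrowest head-to-head members were NAT9 and TMEM104 (6 bp), JMJD6 and METTL23 (11 bp), ANKMY2 and BZW2 (11 bp), TXNDC9 and EIF5B (14 bp) and DIS3 and PIBF1 (14 bp). At the other end, GUCY1A2, MAP3K6, KCMF1, CDC42EP1 and TNK2 spread their summits over 1448 to 1502 bp, so the strongest peak moved between separate parts of a long region. Head-to-head members and other members had the same median span of 58 bp.

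Per library, the median offset of members was −40 bp in WT_4 untreated, −41 bp in KO_C5 untreated and −44 bp in WT_4 with IFNγ, and −48.5 to −53 bp in the other 5 libraries. The first 3 are the libraries that gave more pileup at GC-rich members. The mean over clones was −48.4 ± 3.4 bp in KO and −46.8 ± 6.7 bp in WT (SD, n = 2 clones), and the difference of −1.62 bp was smaller than the spread between clones (exact permutation p = 1, two-sided, smallest possible 0.333). It was 0.875 bp without the IFNγ library of KO_C5. IFNγ libraries averaged −50 ± 4.1 bp and untreated libraries −45.1 ± 5.5 bp (SD, n = 4), and all 4 clones moved upstream with IFNγ, by 4, 1, 10 and 4.5 bp in WT_4, WT_5, KO_C5 and KO_D2. The exact permutation test gave p = 0.200 (adjusted p = 0.743 over 8 tests, smallest possible 0.0286), and sign flips over clones gave an exact permutation p of 0.125, the smallest they can give.

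The median percentile of members was 75.5, 81.4, 72.2 and 67.9 in untreated WT_4, WT_5, KO_C5 and KO_D2, and 71.7, 85.1, 79.8 and 77.3 in the same clones with IFNγ. These medians followed the number of peaks in the list, from 16730 in KO_D2 untreated to 37533 in WT_5 with IFNγ, since a longer list holds more weak peaks below the members. KO clones averaged 74.3 ± 2.4 and WT clones 78.4 ± 6.8 (SD, n = 2 clones), a difference of −4.10 points within the spread (exact permutation p = 0.667, smallest possible 0.333). With lists cut to equal length it was −0.197 points, and leaving out 1 library gave −6.46 (without KO_D2 with IFNγ) to −1.75 (without KO_D2 untreated). IFNγ libraries averaged 78.4 ± 5.6 and untreated libraries 74.2 ± 5.7 (SD, n = 4), a difference of 4.20 points (exact permutation p = 0.371, adjusted p = 0.743). Leaving out 1 library gave 1.99 (without WT_5 with IFNγ) to 6.58 (without WT_5 untreated). The IFNγ difference was −0.781 points with lists cut to equal length and −0.275 points when members were ranked among common regions. Percentiles of fold enrichment gave differences of −4.18 and 4.24 points.

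Peaks at members were a median of 684 and 603 bp wide in untreated WT_4 and WT_5, 507 and 465 bp in untreated KO_C5 and KO_D2, 552 and 710 bp in WT with IFNγ and 568 and 519 bp in KO with IFNγ. Clone means were 515 ± 32 bp in KO and 637 ± 27 bp in WT (SD, n = 2 clones). The difference of −123 bp exceeded the spread, and both KO clones lay below both WT clones, but the exact permutation p of 0.333 is the smallest that 2 against 2 clones allow (adjusted p = 0.743). The local background of peaks, described below, had a higher median in every KO library than in any WT library. Its part in the width was not tested. The IFNγ difference in width was 22.5 bp (exact permutation p = 0.714), and it was −10.8 bp without KO_D2 untreated and −18.4 bp without WT_5 with IFNγ.

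The effect of ZBTB48 loss on single members was tested with limma on log2 fold enrichment of the clone means over all 11551 regions common to the lists. No member changed at an adjusted p under 0.05, and 0% of all regions did. At an unadjusted p under 0.05 there were 545 members (5.99%), beside 6.38% of all regions tested, and 27 members (0.297%) beside 0.3896% of regions when the summit pileup replaced the fold enrichment. With a GC correction 938 members (10.3%) had such a p, beside 10.48% of regions, and 4 regions that are not members passed at the adjusted p.

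The fold enrichment divides the pileup by a local background, and that background differed by genotype. Over members, the local backgrounds of libraries of the same genotype correlated with Pearson's r of 0.934 to 0.970 and those of different genotypes with 0.485 to 0.4999. A limma fit on the background itself called 6330 members (69.6%, 3195 higher and 3135 lower in KO), beside 69.5% of all regions. Across members, the genotype difference in fold enrichment had a Spearman's rho of −0.78 with that in background and of 0.42 with that in pileup, values computed from the same libraries. Input DNA was also sequenced, and whether it set the background is not given in the sources used here. A change of open chromatin and a change of background at a member cannot be told apart by fold enrichment alone, so pileups stand beside it below.

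The members with the lowest p in either direction, none of which passed, showed this. Separation of KO from WT values at these members follows in part from their choice by p. VASP, an actin regulator gene, had fold enrichments of 20.8, 15.3, 15.9 and 25.8 in the WT libraries (WT_4 and WT_5 untreated, then with IFNγ) and 31.1, 30.9, 33.0 and 35.6 in the KO libraries in the same order (log2 difference 1.34, SE 0.28, limma adjusted p = 0.729). All KO values lay above all WT values, but pileups of 81, 85, 57 and 115 fragments in WT and 87, 80, 111 and 135 in KO overlapped, and the background at VASP was lower in KO (log2 difference −1.71). RPL39L, a ribosomal protein paralogue, went the other way, with 60.3, 35.7, 43.9 and 49.5 in WT and 13.2, 10.8, 14.9 and 8.87 in KO (−1.44, SE 0.28), while its background was higher in KO (1.78) and its pileup difference was −0.05. ZMYM6, PPAN-P2RY11, GNAL and DDI2 were also higher in KO by log2 1.19 to 1.39, of which 0.06 to 0.91 remained in pileup, the most at GNAL, a G protein subunit gene. ZNF324B, PIK3CD, C19orf12 and BMF were lower by −1.49 to −1.21 in fold enrichment and by −1.09 to −0.06 in pileup. Among these, PIK3CD, a catalytic subunit of phosphoinositide 3-kinase, kept the largest pileup difference (−1.09), with 34, 38, 33 and 53 fragments in WT and 19, 20, 23 and 16 in KO, which did not overlap. BMF, a BH3-only gene, had 119, 81, 49 and 124 fragments in WT and 47, 39, 62 and 64 in KO, which overlapped.

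Of 7 genes comprising ZBTB48 and targets named by the study, 3 had a constant promoter and 4 a variable one. The study chose this list on related data, so it is no independent evidence of direction. From this FAIRE-seq the study also reported open chromatin that depended on ZBTB48 at MTFP1 and SNX15. The values at SNX15 below thus come from the same data as that report. SNX15, a sorting nexin gene (chr11:65027244-65027961), had 80, 64, 56 and 79 fragments in the WT libraries and 27, 20, 26 and 36 in the KO libraries, so that every KO library lay below every WT library. Its log2 difference was −0.99 in fold enrichment (SE 0.27, limma adjusted p = 0.729) and −1.42 in pileup. How many of all members separate by genotype in this way is not given here. POLE, the catalytic subunit of DNA polymerase epsilon, whose member also holds PXMP2, had 180, 138, 96 and 143 fragments in WT and 120, 66, 114 and 77 in KO, which overlapped (log2 difference in pileup −0.62). ZBTB48 itself had 141, 106, 66 and 156 fragments at its promoter in WT and 53, 97, 74 and 121 in KO (−0.46 in pileup). A peak at a promoter does not report whether the gene product is lost, so this is no check of the knockout.

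The effect of IFNγ was tested with limma over the 4 groups. No member changed at an adjusted p under 0.05 and 0% of all regions did, while 254 members (2.79%) had an unadjusted p under 0.05, beside 3.19% of all regions. Per the labels each clone gave an untreated and a treated library, a pairing by clone. With the clone as a replicate block 1294 members (14.2%) had an unadjusted p under 0.05, beside 14.5% of all regions. In that fit 1 member rose (0.00866% of all regions), and with a GC correction added 2 members rose (0.0173%).

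IL15RA, the alpha chain of the interleukin 15 receptor (chr10:5976902-5978321), was the member called with the block. Its fold enrichment was 7.43, 3.14, 5.16 and 5.61 in untreated WT_4, WT_5, KO_C5 and KO_D2 and 28.3, 23.5, 17.7 and 14.7 with IFNγ. All IFNγ libraries lay above all untreated ones, and the log2 difference was 1.90 (SE 0.30, limma adjusted p = 0.969 without and 0.0282 with the replicate block). On summit pileup the blocked fit gave 1.87 with a limma adjusted p of 0.0513, so the call was lost there. Pileups were 15, 7, 14 and 14 fragments untreated and 50, 45, 57 and 53 with IFNγ. In WT_5 untreated this peak had a percentile of 0.2, close to the limit of calling, so a slightly weaker peak would have left IL15RA out of the members.

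CSF1, the macrophage growth factor gene (chr1:109910480-109911429), was called with the block and GC correction together. It had fold enrichments of 11.6, 10.52, 3.73 and 6.91 untreated and 16.1, 35.7, 23.2 and 18.3 with IFNγ, which did not overlap (log2 difference 1.54, SE 0.26, limma adjusted p = 0.199 with the block and 0.0494 with the correction added). The value of 3.73, in KO_C5 untreated, lay below the stricter fold threshold of 4 used as an alternative. Without that library the log2 difference was 1.28. The other members with the lowest p for higher values did not pass in any of these fits. CD274, which encodes the checkpoint ligand PD-L1 and holds the GAS match shown above, had 26.9, 23.5, 34.3 and 28.4 untreated and 35.1, 52.4, 64.01 and 45.4 with IFNγ (log2 difference 0.83). FAM111A, a protease gene linked to antiviral restriction, had 20.2, 26.2, 11.3 and 15.95 and then 32.4, 69.9, 38.2 and 35.4 (1.25). CMPK2, a nucleotide kinase gene known to respond to interferon, had 5.82, 6.11, 11.9 and 4.93 and then 23.5, 22.04, 22.04 and 17.1 (1.54). In each of these genes the treated and untreated libraries did not overlap, and all 4 clones were higher with IFNγ. IL15RA, CSF1 and these genes were chosen for low p in this direction, so such separation follows in part from the choice. The share of all members that separate in this way is not given here.

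**Figure D4:**
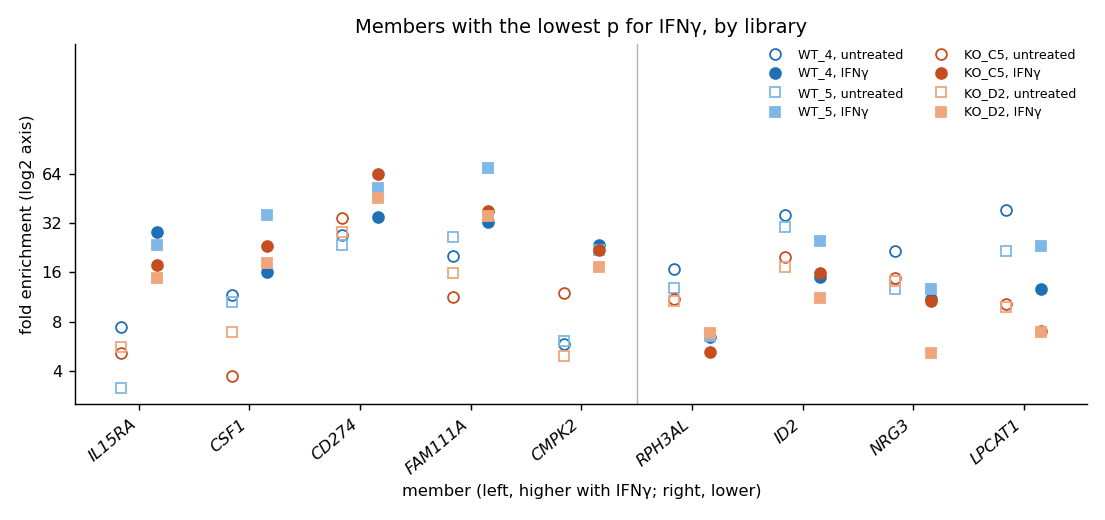
Fold enrichment (vertical axis, log2 scale) in each of 8 libraries for the 5 members with the lowest p for higher and 4 of low p for lower values with IFNγ (horizontal axis), with open symbols for untreated and filled symbols for IFNγ, coloured by clone. IL15RA shows the largest step, from 3.14 to 7.43 untreated to 14.7 to 28.3 with IFNγ.

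None of the members with the lowest p for lower values with IFNγ passed, and separation at them also follows in part from that choice. RPH3AL, an effector of vesicle transport, had 16.9, 12.8, 10.9 and 10.7 untreated and 6.47, 6.55, 5.18 and 6.76 with IFNγ, which did not overlap (log2 difference −1.09, SE 0.23, limma adjusted p = 0.969). ID2, an inhibitor of basic helix-loop-helix factors, had 35.8, 30.5, 19.8 and 17.3 and then 14.9, 25.03, 15.97 and 11.2 (−0.67), with lower values in all 4 clones although the ranges overlapped. NRG3 and LPCAT1 were at −0.82 and −0.70. RPH3AL and LPCAT1 have summit GC contents of 80.1% and 80.7%, and the GC correction with the block left them at −0.90 and −0.51.

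Lists of genes set the members of the IFNγ pathway in context. Of 15 genes of IFNγ signalling, 12 had a constant promoter, held by 15 members with a median percentile of 84.3, and none passed. The receptor chain genes differed in strength, IFNGR1 at 77.6 and IFNGR2 at 24.0. The kinases JAK1 (74.6 and 65.0 at 2 members) and JAK2 (71.3) were followed by STAT2 (94.2), STAT3 (91.8), IRF1 (99.0 and 78.3), IRF2 (84.2), the inhibitor PIAS1 (84.3) and the phosphatases PTPN2 (91.2) and PTPN1 (99.5). IRF9 had a variable promoter, and the feedback inhibitors SOCS1 and SOCS3 had constant promoters of 2000 bp or more.

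The pair of IRF1 members behaved differently in size. The one at the TSS (chr5:132490004-132491489), which holds the GAS match shown, had fold enrichments of 152, 78.5, 67.01 and 53.8 untreated and 125, 146, 55.7 and 60.5 with IFNγ, with overlap (log2 difference 0.28, SE 0.21). The other (chr5:132495585-132497415) had 39.97, 18.98, 20.3 and 9.76 and then 75.1, 64.8, 32.2 and 36.5, again with overlap but with all 4 clones higher (1.34, SE 0.32, limma adjusted p = 0.969 and 0.248 with the block). The difference between these members was not tested. STAT3 stood at 0.66 and IFNGR2 at −0.53.

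Of 55 interferon-induced genes only 12 (21.8%) had a constant promoter, beside 50.1% of all protein-coding genes, while 29 had a variable one and 14 no peak within 1 kb. The rule needs a peak in every untreated library, so a promoter open only with IFNγ could not be a member. This share thus follows in part from the choice. The genes without a constant promoter include GBP1 to GBP5, CXCL9, CXCL10, CXCL11, IFIT1, OAS1 and MX1, classic targets of interferon. The 12 genes that had a constant promoter were held by 11 members. These 11 members had a median percentile of 63.2 and a median log2 IFNγ difference of 0.36, with 9 above 0, against −0.05 and 40.9% above 0 for all members. In MHC class I presentation 11 of 20 genes had a constant promoter, with a median difference of 0.53 and 9 of 12 members above 0. The chaperone genes CANX (98.4) and CALR (86.5) were its strongest members, and PSMB9 shares its member with TAP1. HLA-B, HLA-C and B2M had no constant promoter. After the GC correction 48.3% of all members were above 0, and so were 8 of 11 (median 0.24), 9 of 12 (median 0.32) and, for IFNγ signalling, 13 of 15 (9 of 15 before).

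Of 13 MHC class II genes, 1 (HLA-DMA, in a member shared with BRD2) had a constant promoter, and CIITA had a variable one. By contrast 5 of 7 genes of the factors that assemble on class II promoters had one: CREB1 (98.4), NFYC (88.3), NFYB (77.6), RFX5 (74.4) and RFXAP (70.7). RFX5 had 12, 126, 44 and 74 fragments untreated and 36, 168, 173 and 151 with IFNγ in WT_4, WT_5, KO_C5 and KO_D2. All 4 clones were higher with IFNγ at RFX5, but the lowest untreated and treated values were both in WT_4, and the ranges overlapped (log2 difference in fold enrichment 1.01, SE 0.65, limma adjusted p = 0.969).

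The share of genes with a constant promoter was counted in lists for basic cell functions, beside 50.1% of all protein-coding genes and with no set test. It was 96.3% of 27 heat shock and chaperone genes, 95.2% of 21 cohesin and condensin genes, 90.7% of 43 DNA replication genes, 85% of 20 cytosolic tRNA synthetase genes and 85% of 20 p53 pathway genes. Next came 83.3% of 18 glycolysis genes, 81.2% of 32 proteasome genes, 77.5% of 40 genes of RNA polymerase II and general factors, 74.5% of 47 spliceosome genes, 72.2% of 18 telomere and shelterin genes and 69.2% of 78 cytosolic ribosomal protein genes. Values of 56.7% to 69.0% were found for Mediator, mitochondrial ribosomal, nuclear pore, oxidative phosphorylation and ZBTB family genes, and 75% for AP-1 and immediate early factors. JUN, JUND, FOSL2, EGR1 and ATF3, inducible factors of the AP-1 and early list, had constant promoters of 2000 bp or more in place of a member, as had 8 ZBTB genes.

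Lineage lists came lower. None of 17 lymphoid and myeloid genes had a constant promoter, 14 of which had no peak within 1 kb, and 1 of 14 hepatocyte and 1 of 12 muscle genes did (CYP2E1 and PAX7). Osteoblast and mesenchymal genes, the lineage nearest to U2OS, had 8 of 20 (40%), with MSX2 (88.0), COL1A1 (72.0) and FN1 (68.6) the strongest. Of 13 neuronal genes 6 did (46.2%), led by MAP2 (84.5). Of 13 epithelial genes 3 did (23.1%), led by ESRP2 (96.4) with KRT8 (59.6) and KRT18 (57.9). Osteoblast and mesenchymal genes without a member were ALPL, BGLAP, IBSP, SPP1, SPARC, COL1A2, COL3A1, TWIST1, PRRX1, DLX5, VIM and CDH11. Of these, 1 had a constant promoter of 2000 bp or more.

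Median strength also differed between lists. Heat shock and chaperone members had a median percentile of 88.7, p53 pathway members 87.7, DNA replication members 86.4, beside 75.4 for all members, and the osteoblast and neuronal members 51.5 and 52.5. Single leaders were CCT6A (99.6) in the chaperone list, ADRM1 (99.3) in the proteasome, KLF10 (99.4) among early factors, TIGAR (99.4) among p53 genes, RPL8 (99.1) among ribosomal proteins, MRPL38 (98.9) among mitochondrial ribosomal proteins, ATP5F1E (98.9) in oxidative phosphorylation, NUP50 (98.3) in the nuclear pore and PGAM1 (97.4) in glycolysis. MED13 (96.1), GTF2A1 (95.9), STAG1 (96.7), STN1 (95.7), IARS1 (93.9), SF3B2 (98.0) and ZBTB18 (96.5) led or nearly led the others. Cytosolic ribosomal protein members had the lowest median GC content of the larger lists (62.6% against 70.1% for all members) and a median log2 IFNγ difference of 0.12, with 40 of 56 above 0 before and 26 of 56 after the GC correction.

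Whether the response to IFNγ differed by genotype was tested as an interaction in limma. No member passed and 0% of all regions did, and 83 members (0.912%) had an unadjusted p under 0.05, beside 1.06% of all regions. With the replicate block by clone 677 members (7.44%) did, beside 7.93% of regions, and none passed after adjustment. IRS1, the insulin receptor substrate gene, had the lowest p. It had 15.4, 12.2, 14.0 and 17.0 untreated and 13.5, 24.9, 8.75 and 6.82 with IFNγ in WT_4, WT_5, KO_C5 and KO_D2 (log2 difference of differences −1.56, SE 0.37, limma adjusted p = 1.00). IER3, an early response gene, had 23.7, 19.4, 5.07 and 7.73 and then 10.8, 24.6, 16.9 and 11.0 (1.48, SE 0.45). Fold enrichments as deposited were higher with IFNγ in both KO clones at IER3 and lower at IRS1, while at both genes WT_4 was lower and WT_5 higher. The log2 differences come from normalised values, on which WT_4 and WT_5 differed from untreated by 0.26 and 0.47 at IRS1 and by −0.62 and −0.20 at IER3.

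Members in the same stretch of a chromosome moved together in the libraries of WT_5, KO_C5 and KO_D2, and little in those of WT_4. The view by stretch was added after the values were seen. After the GC correction, the median log2 deviation of members was taken in 176 bins of 10 Mb with at least 20 members each, 7499 members in all. Over bins, the untreated and IFNγ libraries of the same clone correlated with Pearson's r of 0.27 in WT_4, 0.80 in WT_5, 0.77 in KO_C5 and 0.86 in KO_D2, against −0.61 to 0.25 for libraries of different clones. The mean of 0.68 over clones was the highest among the 24 possible pairings of untreated and treated libraries (exact permutation test, one-sided, p = 0.0417, the smallest possible). Between clones, bins differed by a median of 0.25 on the log2 scale from the highest to the lowest clone.

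**Figure D5:**
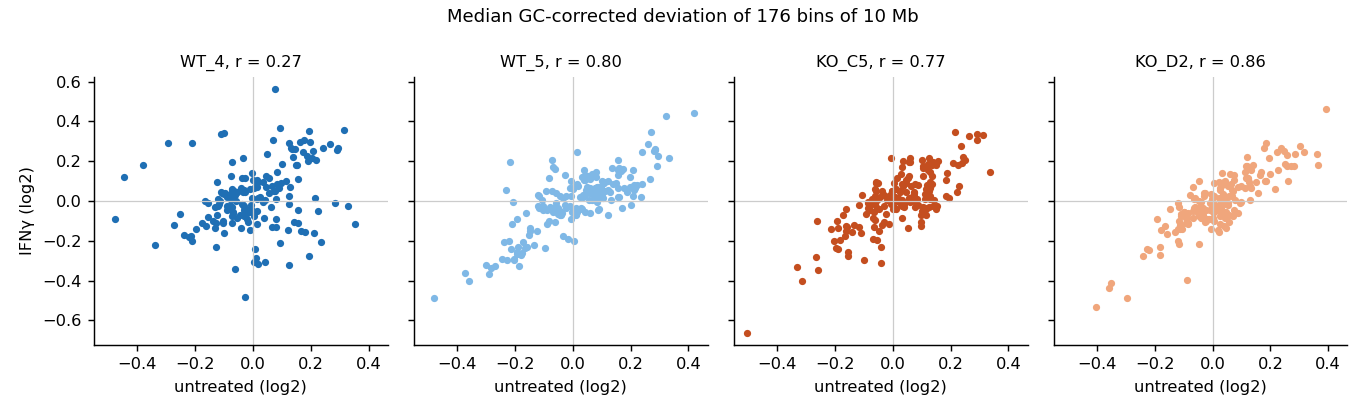
Median GC-corrected log2 deviation of members in 176 bins of 10 Mb, untreated (horizontal axis) against IFNγ (vertical axis), with 1 panel per clone and 1 point per bin. Points follow a rising line in WT_5, KO_C5 and KO_D2 (r of 0.77 to 0.86) and scatter in WT_4 (r = 0.27).

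The widest bin was the first 10 Mb of chromosome 1, with 59 members, where KO_C5 stood at −0.50 untreated and −0.66 with IFNγ and the other clones at 0.09 to 0.29. ZBTB48 and PIK3CD lie in this bin. Members between 100 and 110 Mb of chromosome 14 (33 members) were at −0.40 and −0.53 in KO_D2 and at 0.03 to 0.30 in the other clones. Those between 150 and 160 Mb of chromosome 5 (27 members) were at −0.48 and −0.49 in WT_5 and at −0.06 to 0.35 elsewhere. In the first 10 Mb of chromosome 18 (25 members) all 4 KO libraries lay above all WT libraries, at 0.13 to 0.31 against −0.29 to −0.14. Other bins separated by genotype as well, in either direction. Between 80 and 90 Mb of chromosome 8, KO libraries were at 0.05 to 0.18 and WT libraries at −0.23 to 0.02. Between 80 and 90 Mb of chromosome 4, KO libraries were at −0.27 to −0.003 and WT libraries at 0.02 to 0.29. The share of bins that separate in this way is not given here, so the separation does not single out chromosome 18. The number of copies of these stretches in each clone was not measured here, and its part in single-member differences between genotypes was not tested.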

How the data were processed

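FAIRE-seq peak lists of 8 libraries (4 clones, untreated and with IFNγ) were analysed. Per the study's methods and the submitters' processing notes, the authors trimmed reads with Trimmomatic, aligned them to GRCh38 with Bowtie2 2.2.5, dropped reads of mapping quality below 30 with SAMtools 1.14 and called peaks per library with MACS2 2.2.7.1 in paired-end mode. The notes also name deepTools 3.5.1. Column 7 of the deposited lists holds fold enrichment, a ratio of summit pileup to local background. Columns 8 and 9 of the deposited lists hold −log10 p and −log10 q, from the same caller. The deposited score in column 5 was not used, and the deposited column 10, the summit's distance from the peak's start in bp, gave the summits. How duplicate reads were treated is not given in the sources used here.

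Members and gene lists were chosen with earlier results of these data known. Peaks of chromosomes 1 to 22 and X were merged, and the strongest peak of a library (by −log10 p) stood for a region. TSS came from GENCODE 44. A member bears the name of the protein-coding gene with the TSS nearest its median summit. The fragments over a summit and their local background were recovered from the deposited ratio and p-value with the Poisson model of MACS, with a largest relative residual of 6.62e-06. These fragments stand in for depth, which limits precision at weak members.

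Log2 fold enrichment of 11551 common regions was quantile normalised and fitted with limma 3.58.1 in R 4.3.3, genotype on clone means, IFNγ and the interaction over 4 groups, with Benjamini-Hochberg adjustment over all regions. Python 3.11.15, numpy 2.4.6, pandas 2.3.3, scipy 1.17.1 and matplotlib 3.10.9 were used otherwise. Medians were compared by exact permutation over 6 assignments of clones or 70 of libraries, two-sided, and adjusted over 8 tests. Named members were the 10 strongest and 5 weakest, the 5 with the lowest p in each direction of each comparison, the 5 widest and 5 narrowest summit spans (the latter among head-to-head pairs), all members of 3 lists (ZBTB48 targets, class II factors, IFNγ signalling) and the strongest of other lists. MED1, RPS12, TSPAN9 and COL6A2 were chosen after their values were seen. Some genes and sequences that these rules select are not reported here. Where nothing else is stated, p-values measure the spread between these clones and libraries.

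Per the labels, each clone gave both an untreated and a treated library, which pairs them. The deviations of replicates correlated between untreated and IFNγ libraries with r of 0.73 in WT and 0.41 in KO. WT and KO clones share only a number, and their deviations correlated with r of 0.45 untreated and −0.13 with IFNγ. Without a GC correction, the value of 0.41 in KO thus did not exceed that between untreated WT and KO clones. With it, r was 0.58 in WT and 0.42 in KO. Between WT and KO clones it was then 0.23 untreated and −0.21 with IFNγ. Alternatives were other normalisations and measures, stricter q and fold thresholds, lists cut to 16730 peaks, a 500 bp window, an overlap of 0.5, 1 TSS per gene, no length limit, blocks and the omission of each library. Corrections for GC content (a spline with 5 degrees of freedom in each library), the omission of clone KO_C5 and the fit on local background were added after the data were seen. The fits and the interval code were tested on simulated data.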

Additional observations from a re-analysis of the deposited data

Results flagged for a closer look

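At 10 members the response to IFNγ went in opposite directions in the clones of either genotype, after normalisation. All 10 were named for the lowest p of the interaction, so opposite directions follow in part from the choice, and none passed that test (limma, adjusted p = 1.00 for each). The difference in log2 response, KO minus WT, was 1.34 at CCDC71L, 1.48 at IER3, 1.605 at PWWP2A, 1.71 at ALG10 and 1.09 at FGFRL1. It was −1.56 at IRS1, −1.14 at ROBO3, −1.16 at CNIH3, −1.17 at BEX1 and −1.26 at CES2. ALG10, a glucosyltransferase of glycoprotein synthesis, had the fewest fragments, 10, 24, 13 and 9 untreated and 6, 16, 35 and 26 with IFNγ in WT_4, WT_5, KO_C5 and KO_D2. No group had the 4 libraries that a check for single outlying libraries needs.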

How the results depend on the processing

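The number of members ranged from 7746 (1 TSS per gene) to 9448 (a peak in the 7 lists other than KO_C5 untreated), so no alternative moved it by more than 1.5 times. No genotype or interaction fit of fold enrichment, −log10 p or pileup called a member, while 6330 were called for genotype on local background. For genotype 938 members (10.3%, beside 10.48% of regions) had an unadjusted p under 0.05 with the GC correction, against 545 (5.99%, 6.38%) without and 27 (0.297%, 0.3896%) with pileup. For IFNγ, 1 member was called with the replicate block by clone (0 on pileup) and 2 with the GC correction and that block, 0 otherwise; without clone KO_C5 there were 0, and 72 (0.792%, beside 1.04% of regions) with an unadjusted p under 0.05, against 254 (2.79%, 3.19%) with it and 1294 (14.2%, 14.5%) with the block. ZMYM6 and RPL39L changed sign for genotype with GC-corrected pileup, at −0.026 and 0.0017 on the log2 scale.

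For the median percentile of −log10 p, KO minus WT was −0.197 points with lists of equal length and 0.0433 when ranked among common regions, and IFNγ minus untreated was −0.781 with lists of equal length and −0.275 among common regions (exact permutation p = 0.0857 and 0.0286, n = 4, the latter the smallest possible). For fold enrichment the same values were 0.0119, −0.770 and −0.145 points. Percentiles within whole lists thus depend on how many weak peaks a list holds. Leaving out each library gave −4.12 to 0.875 bp for the offset difference between genotypes and −18.4 to 62.2 bp for the IFNγ difference in width. With signs flipped within the paired clones no median could pass, since the smallest possible exact permutation p is 0.125 (n = 4). The cause of the other reversals was not tested.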
